A study of Mus musculus with 38 samples.

Results

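The luminal cells that line the ducts and alveoli of the mammary gland are recognized by a small set of genes, and 10 of them were followed here through tumor progression and chemotherapy in the MMTV-PyMT mouse model. They were Krt8, Krt18 and Krt19, the keratins of simple epithelia, Cd24a, a surface glycoprotein used to sort luminal cells, the transcription factors Elf5, Gata3 and Foxa1, and the hormone receptors Prlr, Esr1 and Pgr. The genes were found by name among the probes that were not controls, older keratin names included, which gave 15 probes for 10 genes out of 41174 probes for 28784 gene names. Each gene was read from its brightest probe in an experiment, and the other probes are given where they differed.

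In this model the mouse mammary tumor virus promoter drives the polyoma middle T oncogene. Hyperplasias of female mice that carried both MMTV-PyMT and a GFP transgene under an actin promoter were transplanted into cleared mammary fat pads of FVB/n hosts, and GFP-positive cells were sorted from the outgrowths, so the groups share the oncogene, the GFP transgene and the host strain. Progression was followed in 5 adenomas, 6 late carcinomas, 6 preparations of disseminated cells and 5 preparations of lung metastases. Disseminated cells were sorted from the lungs of mice that still bore their tumors, with several mice pooled per sample, and metastases were collected after the primary tumor had been removed by surgery. The chemotherapy experiment held 6 untreated tumors, 6 residual tumors taken after the first dose of docetaxel, doxorubicin and cyclophosphamide, and 4 relapsed tumors taken after the fourth dose, with treatment begun 2 months after transplant. The deposited labels call these last 2 groups regressed and resistant tumors. Every value is a log2 ratio of the Cy5-labeled sample to a Cy3-labeled Universal mouse reference on a 2-color array. RNA of the progression samples went through 2 rounds of amplification before labeling, and that of the chemotherapy samples did not, so the experiments were not compared with each other.

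Luminal cells form the inner layer of the mammary epithelium. Some of them carry receptors for estrogen and progesterone and pass the signal on to their neighbors, with Gata3 and Foxa1 needed for that fate. Others are alveolar precursors that depend on Elf5 and on the prolactin receptor to make milk-secreting cells. Keratins 8 and 18 pair into the filaments of both kinds.

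Most of the 10 genes were readily measured. In the progression experiment the sample channel was well above background on all 22 arrays for Krt8, Krt18, Krt19, Cd24a, Elf5, Gata3 and Prlr, on 15 arrays for Esr1 and on 15 arrays for Foxa1. Pgr was the exception. Its brightest probe was well above background on 1 of the 22 progression arrays and 0 of the 16 chemotherapy arrays, and the second Pgr probe on none of the 38, so no change of the progesterone receptor was measurable and no fold is given for it. The keratins, Cd24a, Elf5, Gata3 and Prlr can thus be followed on every array. Esr1 can be followed on 15 of 22 progression arrays and all 16 chemotherapy arrays, and Foxa1 on 15 of 22 and 8 of 16.

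Several arrays stood apart, and this bears on every progression result. The median Pearson correlation of an array with the others of its group was 0.76 for carcinoma 6, 0.78 for disseminated cells 4, 0.71 for disseminated cells 6 and 0.78 for metastases 4, against 0.83 to 0.96 for the rest. Genes of other cell types moved with the groups. The mean log2 ratio of 18 macrophage markers lay between -0.21 and 0.49 in adenomas, between -0.73 and 0.70 in carcinomas 1 to 5, at 4.93 in carcinoma 6, between 3.33 and 5.03 in disseminated cells and between 0.45 and 5.13 in metastases. All 18 markers were well above background on every array of disseminated cells and metastases, and 16 of 18 passed the test as higher in disseminated cells than in adenomas. A mean over 13 lung epithelial markers ran from 0.47 to 1.03 in adenomas, from 0.59 to 1.03 in carcinomas, from 1.54 to 3.13 in disseminated cells and from 1.18 to 2.22 in metastases. Neutrophil markers were higher in disseminated cells than in adenomas for 7 of 9 and than in carcinomas for 8 of 9, and endothelial markers for 7 of 10 and 3 of 10. The neutrophil list mean ran from 1.75 to 2.07 in adenomas, from 1.94 to 4.01 in carcinomas, from 3.47 to 6.11 in disseminated cells and from 1.80 to 4.07 in metastases, and the endothelial mean was 0.89 to 2.74 in disseminated cells and -0.02 to 0.39 in adenomas. The part of these cell types in the results was not tested beyond the macrophage covariate. In such sorted samples a smaller share of epithelial cells and less RNA per cell cannot be told apart.

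The progression comparison asked how the luminal genes differ between primary tumors, cells that have reached the lung and grown metastases. Genes count as called here where limma's moderated test over all genes gave an adjusted p under 0.05 together with a difference of 2-fold or more. Krt8 and Krt18 were lower in disseminated cells than in carcinomas, Elf5 was lower in disseminated cells and in metastases than in adenomas, and Krt19 was higher in metastases than in disseminated cells. No luminal gene passed between carcinoma and adenoma or between metastases and carcinoma. These calls were 1 of 10 for disseminated cells against adenoma, where 10.5% of all genes were called and 5.82% were called lower. They were 1 of 10 for metastases against adenoma (14.6% of all genes, 8.47% lower), 2 of 10 for disseminated cells against carcinoma (11.6%, 6.07% lower) and 1 of 10 for metastases against disseminated cells (7.12%, 3.43% higher). For carcinoma against adenoma they were 0 of 10 (3.30% of all genes), with 0 at an unadjusted p under 0.05, and for metastases against carcinoma 0 of 10 (10.1%), with 4 at an unadjusted p under 0.05. Tested gene by gene without moderation, 0 were also called in these last 2 comparisons. With 10 genes, 1 call is a share close to that of all genes, and nothing is read from these counts about the set.

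**Figure D1:**
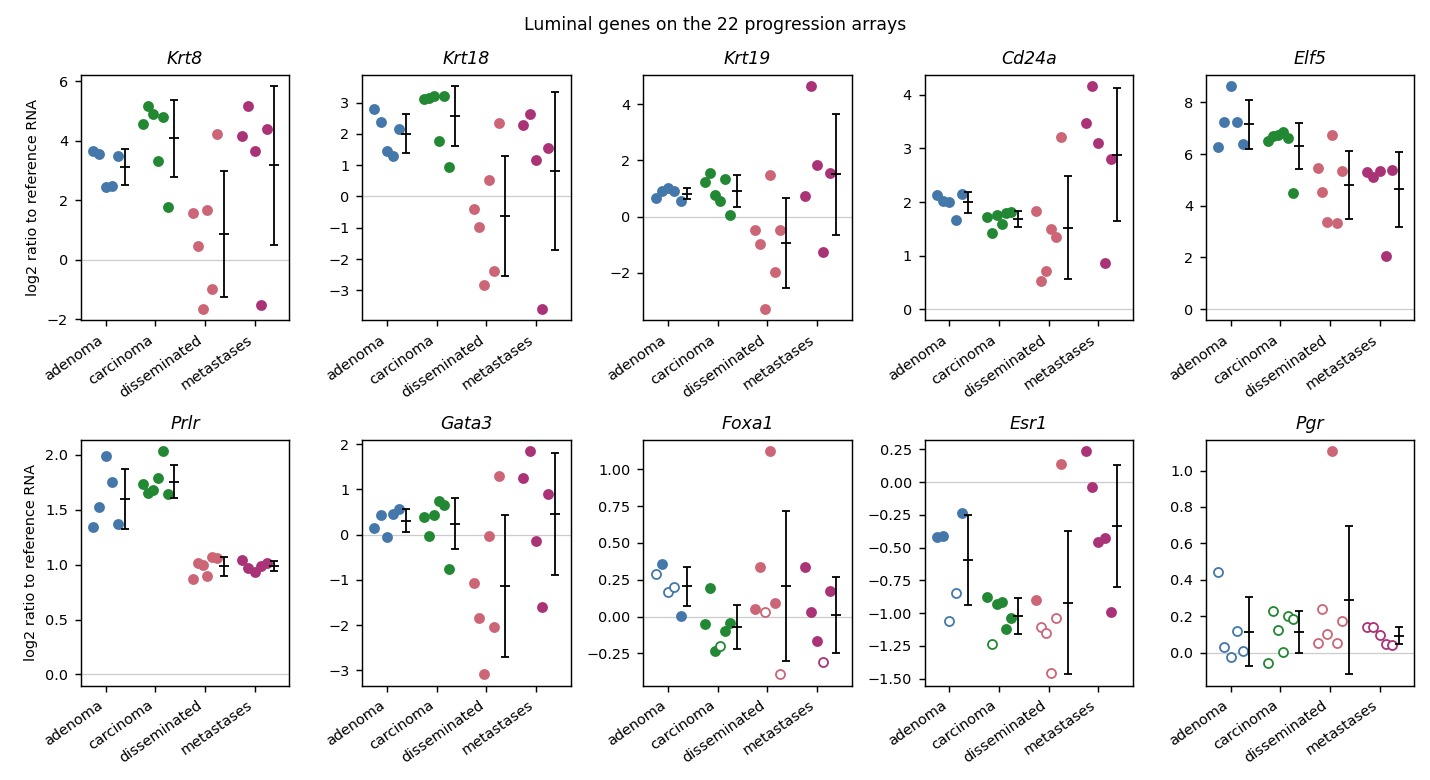
Log2 ratio to the reference RNA (vertical axis) of the 10 luminal genes on the 22 progression arrays, by group, with 1 point per array, open where the sample channel was not well above background, and the mean and SD of the group in black. Krt8, Krt18, Krt19 and Gata3 spread from low to high among disseminated cells and metastases, while the brightest Prlr probe lay at 1.07 or below on every array of both groups.

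Keratins 8 and 18 are filament partners in simple epithelia. Krt8 stood in adenomas 1 to 5 at 3.66, 3.57, 2.45, 2.49 and 3.48 (mean 3.13 ± 0.60 SD, n = 5). In carcinomas it ranged from 1.77 to 5.15 with a median of 4.67, in disseminated cells from -1.65 to 4.22 with a median of 1.01. In metastases 1 to 5 it was 4.16, 5.17, 3.64, -1.50 and 4.39. In all, 5 of 6 samples of disseminated cells lay below every carcinoma, the exception being replicate 6, and 1 metastasis sample of 5 lay below all primary tumors. The difference between disseminated cells and carcinomas was -3.20 ± 1.01 (SE), 9.18-fold lower, with an adjusted p of 0.0242. Against adenomas it was -2.25 ± 1.06 (adjusted p = 0.141), and metastases differed from carcinomas by -0.90 ± 1.06 (adjusted p = 0.615). The Krt8 call was lost without carcinoma 2, 3 or 5 or disseminated cells 3 or 5, each left out alone, with differences of -3.06 to -2.69 and adjusted p of 0.050 to 0.0638. The second Krt8 probe gave -4.04 ± 1.17 between disseminated cells and carcinomas (adjusted p = 0.0164).

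Krt18 was 2.01 ± 0.63 (SD, n = 5) in adenomas, 2.57 ± 0.97 (n = 6) in carcinomas, -0.62 ± 1.91 (n = 6) in disseminated cells and 0.81 ± 2.53 (n = 5) in metastases. Among the carcinomas the lowest value was 0.96, in replicate 6, and the median 3.13. Disseminated cells ranged from -2.82 to 2.34 around a median of -0.69, and 5 of 6 lay below every carcinoma. Metastases 1 to 5 had 2.28, 2.65, 1.18, -3.59 and 1.55, so that replicate 4 was the lowest of all 22 arrays. Disseminated cells were 9.12-fold lower than carcinomas (-3.19 ± 0.92, adjusted p = 0.0148), and the difference from adenomas of -2.63 ± 0.96 missed the threshold (adjusted p = 0.0584). The second difference passed with all arrays under some alternatives, such as the deposited ratios (-2.70, adjusted p = 0.0391) and slide as a fixed block (-2.65, adjusted p = 0.0397). With the macrophage covariate it was -0.42 (adjusted p = 0.936). Over the 22 arrays the ratios of Krt8 and Krt18 had a Pearson correlation of 0.97 and, over the 16 chemotherapy arrays, of 0.92, as a description of arrays that share a reference and fall into groups.

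The values of other cell types stand beside both keratins. With the macrophage list mean as a covariate, the difference between disseminated cells and carcinomas was -0.97 for Krt8 (adjusted p = 0.707) and -1.33 for Krt18 (adjusted p = 0.553). The macrophage means of disseminated cells and of carcinomas 1 to 5 do not overlap, so this covariate and the group can hardly be told apart. Among disseminated cells, replicate 6, with the highest Krt8 at 4.22, had a macrophage mean of 4.27 and a neutrophil mean of 3.47, and replicate 3, with the lowest at -1.65, had 3.83 and 5.50. Without carcinoma 6 the differences were -3.66 for Krt8 (adjusted p = 0.0110) and -3.51 for Krt18 (adjusted p = 0.00903).

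**Figure D2:**
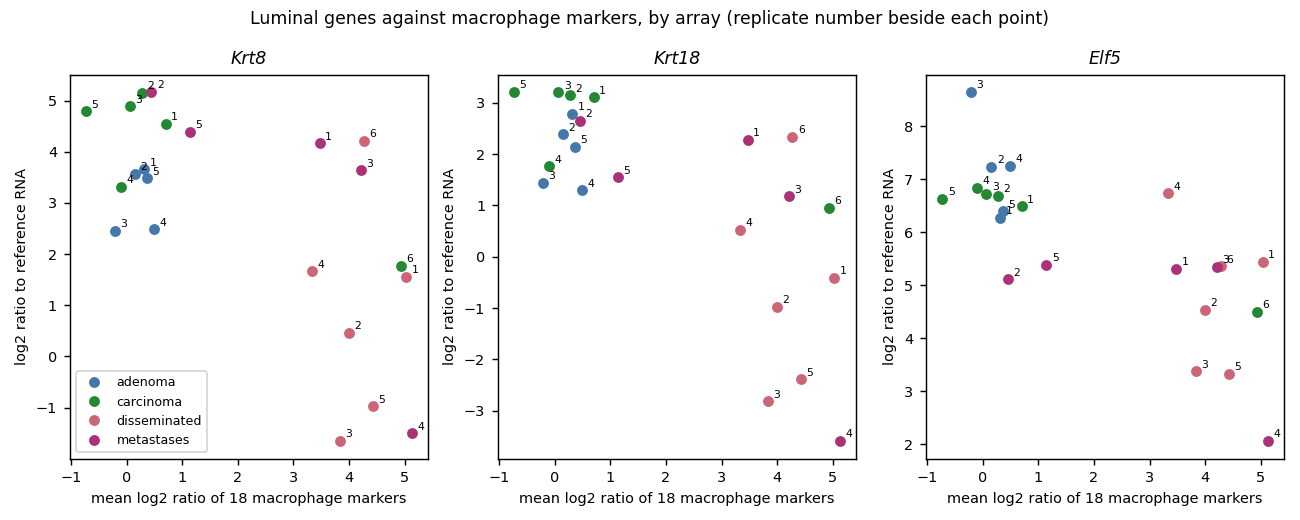
Log2 ratio of Krt8, Krt18 and Elf5 (vertical axes) against the mean log2 ratio of 18 macrophage markers (horizontal axis) on the 22 progression arrays, colored by group, with the replicate number beside each point. Disseminated cells all lie at a macrophage mean of 3.33 or more, where Krt8 spans -1.65 to 4.22, and carcinoma 6 lies among them at 4.93.

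The genes of both keratins are neighbors on mouse chromosome 15. The probes lie at chr15:101982940-101982999 and chr15:101983072-101983131 for Krt8 and at chr15:102018067-102018126 for Krt18, in build mm7 as the array files give them. Because the 2 genes had like patterns, the 250 bases before their transcription starts are shown from RefSeq (GRCm38.p6, chr15:102004343-102004592 on the minus strand for Krt8 and chr15:102027966-102028215 on the plus strand for Krt18), 5′ to 3′. Capitals mark matches to 4 motifs searched on both strands, which were the TATA box TATAAA, the motif of GATA factors AGATAA, the motif of forkhead factors TGTTTAC and the motif of ETS factors, the family of Elf5, AGGAAG.
Krt8: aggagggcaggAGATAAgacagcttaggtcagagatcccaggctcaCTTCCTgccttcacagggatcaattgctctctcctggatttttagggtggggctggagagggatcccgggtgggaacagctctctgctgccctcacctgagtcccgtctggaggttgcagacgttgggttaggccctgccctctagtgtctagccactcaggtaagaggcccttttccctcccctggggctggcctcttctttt
Krt18: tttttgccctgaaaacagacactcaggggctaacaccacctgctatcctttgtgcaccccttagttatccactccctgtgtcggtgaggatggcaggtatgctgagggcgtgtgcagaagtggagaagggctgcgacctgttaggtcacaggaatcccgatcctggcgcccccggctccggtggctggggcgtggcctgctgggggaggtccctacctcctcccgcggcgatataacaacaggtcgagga
The Krt8 window holds 1 AGATAA and 1 AGGAAG (as its reverse complement), and the Krt18 window holds none of the 4 motifs. Over all 32851 promoter windows of this length 9.99% hold AGATAA, 29.5% AGGAAG, 12.4% TATAAA and 3.17% TGTTTAC. Of the 10 luminal genes 8 have a promoter in the table used here.

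Krt19, another keratin of simple epithelia, was the one luminal gene called between metastases and disseminated cells. It was 0.81 ± 0.19 (SD, n = 5) in adenomas and 0.91 ± 0.56 (n = 6) in carcinomas. Disseminated cells 1 to 6 had -0.48, -0.99, -3.30, 1.47, -1.96 and -0.46, and metastases 1 to 5 had 0.72, 4.66, 1.83, -1.26 and 1.55. The groups overlapped, and 3 of 5 metastasis samples lay above every sample of disseminated cells. Metastases were higher by 2.45 ± 0.78 (5.47-fold, adjusted p = 0.0433). With only these 2 groups fitted the adjusted p was 0.199. Without metastases 2, the highest array, the difference was 1.66 (adjusted p = 0.137), and the call was also absent in 17 of 22 refits that each left out 1 array. The differences of disseminated cells from carcinomas (-1.87 ± 0.75, adjusted p = 0.0704) and adenomas (-1.76 ± 0.78, adjusted p = 0.117) did not pass. The Krt19 probe lies at chr11:100250117-100250176 in mm7.

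For Cd24a 4 of 5 metastasis samples lay high, and no comparison passed. Adenomas lay between 1.66 and 2.16 and carcinomas between 1.43 and 1.81. Disseminated cells ranged from 0.52 to 3.21 with a median of 1.42, and metastases 1 to 5 had 3.48, 4.17, 3.09, 0.86 and 2.81. Of 5 metastasis samples 4 were above every primary tumor and replicate 4 was below all of them. The difference was 1.2 ± 0.45 from carcinomas (95% interval 0.25 to 2.15, adjusted p = 0.0647) and 1.36 ± 0.45 from disseminated cells (0.41 to 2.31, adjusted p = 0.0528). The second difference lay near the threshold and passed with all arrays under some alternatives, such as median centring (1.40, adjusted p = 0.0465) and the deposited ratios (1.27, adjusted p = 0.0458). Without metastases 4 the differences became 1.71 (adjusted p = 0.00480) and 1.87 (adjusted p = 0.00289).

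Elf5, the regulator of alveolar differentiation, was in the main fit highest in adenomas by group mean, followed by carcinomas. Disseminated cells (4.79) and metastases (4.64) had close means, and by median metastases (5.32) lay above disseminated cells (4.95). Adenomas 1 to 5 stood at 6.27, 7.23, 8.65, 7.25 and 6.40. Carcinomas ranged from 4.50, in replicate 6, to 6.84 with a median of 6.66, and disseminated cells from 3.32 to 6.73 with a median of 4.95. Metastases 1 to 5 had 5.32, 5.11, 5.34, 2.06 and 5.38, and no metastasis sample overlapped the adenomas. Metastases were 5.72-fold lower than adenomas (-2.52 ± 0.71, adjusted p = 0.0116) and disseminated cells 5.15-fold lower (-2.36 ± 0.68, adjusted p = 0.0186). The call for disseminated cells was lost without adenoma 3 (-1.99, adjusted p = 0.0601) and without disseminated cells 5 (-2.07, adjusted p = 0.0510). In the main fit other neighboring groups did not pass: carcinoma minus adenoma was -0.85 ± 0.68 (adjusted p = 0.449), disseminated cells minus carcinoma -1.52 ± 0.65 (adjusted p = 0.0892) and metastases minus disseminated cells -0.15 ± 0.68 (adjusted p = 0.922). The Elf5 probe lies at chr2:103301588-103301647 in mm7.

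The size of the Elf5 differences, and the order of adenomas and carcinomas, depended on how the ratios were scaled. Over the main fit and the alternatives, carcinoma minus adenoma ran from -1.07 to 0.51 and was never called. The reference channel of Elf5 was well above background on 20 of 22 arrays. Without quantile normalization between arrays the difference was -1.25 for disseminated cells (adjusted p = 0.326) and -1.42 for metastases (adjusted p = 0.262) against adenomas, and from the scanner's processed signals it was -0.63 (adjusted p = 0.320) and -0.73 (adjusted p = 0.240). With the macrophage list mean as a covariate it was -0.60 (adjusted p = 0.841) and -1.32 (adjusted p = 0.247). Against carcinomas, processed signals gave calls for disseminated cells (-1.15, adjusted p = 0.0472) and metastases (-1.24, adjusted p = 0.0450). For disseminated cells median centring (-1.37, adjusted p = 0.0342) and the deposited ratios (-1.60, adjusted p = 0.0499) also did. Without normalization between arrays these differences were -1.27 (adjusted p = 0.289) and -1.44 (adjusted p = 0.265), and with the covariate -0.04 (adjusted p = 0.984) and -0.76 (adjusted p = 0.520). Adenomas and disseminated cells shared slides, and within slides 9, 10 and 11 disseminated cells minus adenomas came to -1.36, -3.46 and -3.01. Carcinomas and metastases shared the other 3 slides, where metastases minus carcinomas in Elf5 came to -1.40, -2.92 and -0.46 within slides 6, 7 and 8. Other pairs of groups lay on different slides scanned on different days, so slide and group cannot be told apart there. This covers carcinomas against adenomas, disseminated cells against carcinomas, and metastases against adenomas or disseminated cells.

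**Figure D3:**
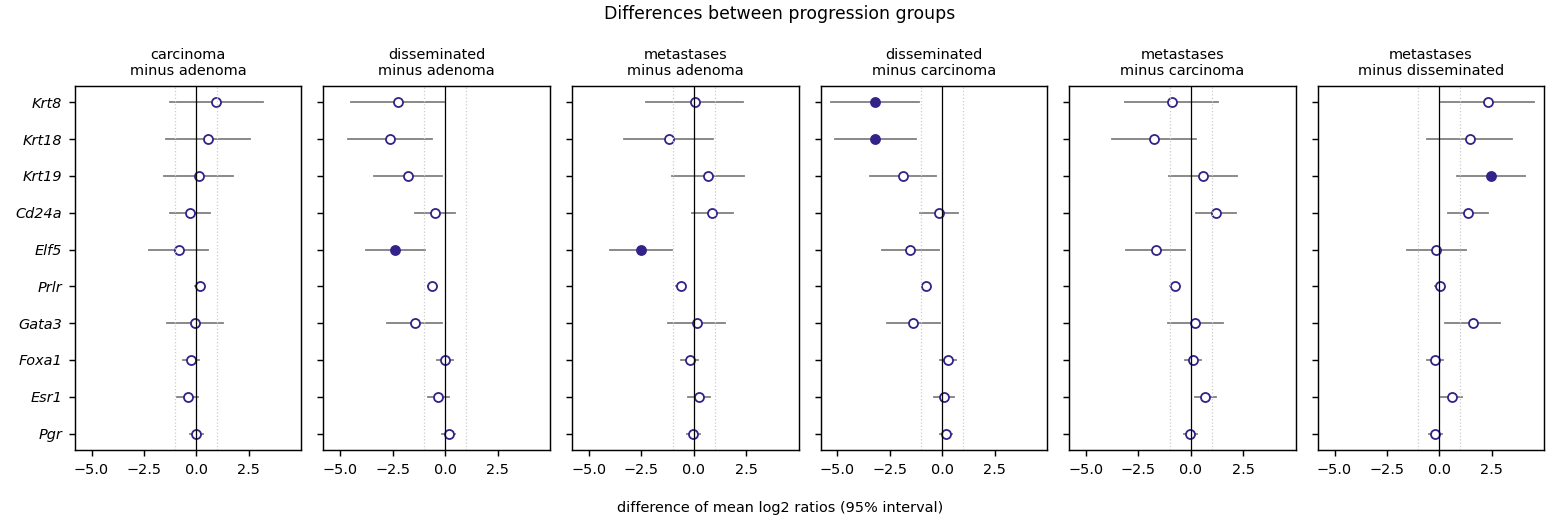
Difference of mean log2 ratios (horizontal axis) with its 95% interval for the 10 luminal genes (vertical axis) in the 6 comparisons of progression groups, filled where the gene was called and with dotted lines at 2-fold. Called are Elf5 against adenoma in 2 panels, Krt8 and Krt18 between disseminated cells and carcinoma, and Krt19 between metastases and disseminated cells.

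Gata3, which maintains the luminal fate, lay near the reference in primary tumors and spread widely elsewhere. Adenomas lay between -0.05 and 0.57, carcinomas between -0.76 and 0.75, disseminated cells between -3.09 and 1.28 and metastases between -1.60 and 1.85. Of 6 samples of disseminated cells 4 were below every primary tumor. The differences from adenomas (-1.44 ± 0.63, adjusted p = 0.111) and carcinomas (-1.37 ± 0.60, adjusted p = 0.0982) did not pass. Without disseminated cells 6, the highest array, they were -1.93 (adjusted p = 0.0183) and -1.86 (adjusted p = 0.0139). Foxa1, a pioneer factor for the estrogen receptor, had group means between -0.07 and 0.21, and no difference passed. In the main fit the 95% intervals of all 6 differences lay between -0.66 and 0.64. The probe was well above background on 15 of 22 arrays. Among the alternatives the difference from adenomas reached -1.52 for carcinomas and -1.19 for metastases, and none was called.

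Prlr, the prolactin receptor, gave different answers from its 3 probes. The brightest, at chr15:10387524-10387583 in mm7, stood at 1.60 ± 0.27 (SD, n = 5) in adenomas, 1.76 ± 0.15 (n = 6) in carcinomas, 0.98 ± 0.08 (n = 6) in disseminated cells and 0.99 ± 0.04 (n = 5) in metastases. No array of the last 2 groups overlapped a primary tumor. The differences were -0.61 ± 0.10 (adjusted p = 0.000729) and -0.61 ± 0.10 (adjusted p = 0.000310) against adenomas and -0.77 ± 0.10 (adjusted p = 3.36e-05) and -0.77 ± 0.10 (adjusted p = 8.98e-05) against carcinomas, all under 2-fold and so not called. Without normalization between arrays they were -0.25 (adjusted p = 0.191) and -0.29 (adjusted p = 0.142) against adenomas. Against carcinomas they were then -0.67 (adjusted p = 0.00109) and -0.70 (adjusted p = 0.00175). With the macrophage covariate the differences from adenomas were -0.51 (adjusted p = 0.156) for disseminated cells and -0.54 (adjusted p = 0.00850) for metastases.

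The other Prlr probes had wider spread. The probe at chr15:10394904-10394963 was 1.45 ± 1.11 (n = 6) in disseminated cells and 3.0 ± 1.34 (n = 5) in metastases, against 2.91 ± 0.41 (n = 6) in carcinomas, with disseminated cells lower by -1.46 ± 0.51 (adjusted p = 0.0428) and metastases differing by 0.09 ± 0.54 (adjusted p = 0.944). The probe at chr15:10398442-10398501 was 1.39 ± 0.89 in disseminated cells and 1.92 ± 0.84 in metastases, against 3.09 ± 0.44 in adenomas, with differences of -1.70 ± 0.44 (adjusted p = 0.0118) and -1.17 ± 0.46 (adjusted p = 0.0638). All 3 probes were lower in disseminated cells than in primary tumors on average. For metastases they disagreed, with 1 probe at the level of the carcinomas. The array files tie the probes to 3 different transcript records, and which forms of the receptor they read was not tested.

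**Figure D4:**
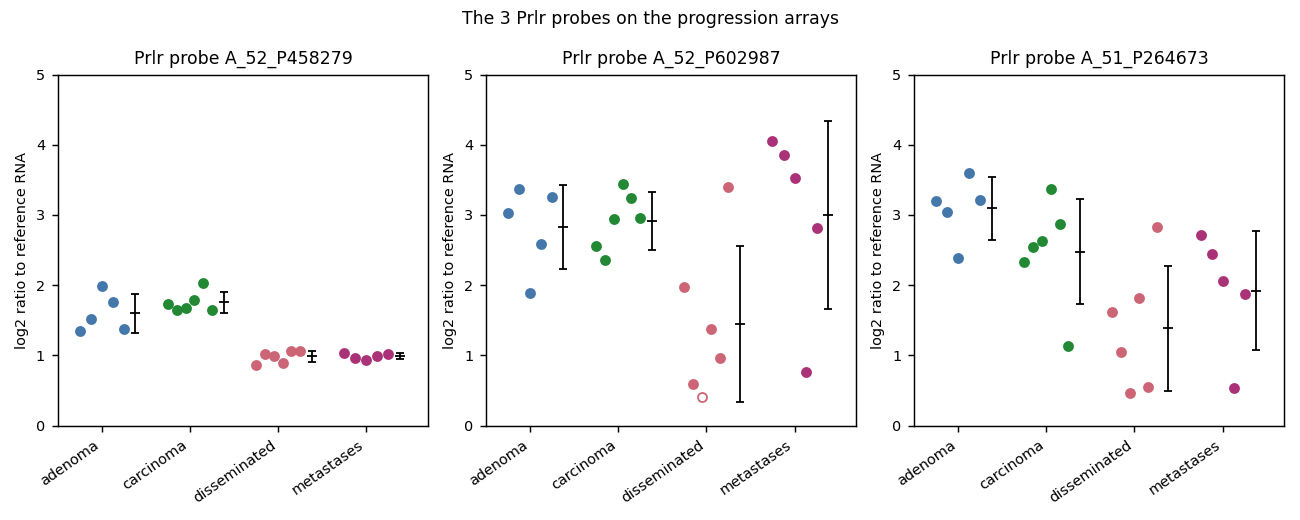
Log2 ratio to the reference RNA (vertical axis) for each of the 3 Prlr probes on the 22 progression arrays by group, with 1 point per array, open where not well above background, and mean and SD in black. The first probe is tight near 1 in disseminated cells and metastases, and the second is spread from 0.76 to 4.05 in metastases.

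Esr1, the estrogen receptor, was dim. Its brightest probe, at chr10:5343241-5343300 in mm7 and printed 10 times per array, was well above background on 3 of 5 adenomas, 5 of 6 carcinomas, 2 of 6 samples of disseminated cells and all 5 metastasis samples. Metastases ranged from -0.99 to 0.24 and carcinomas from -1.23 to -0.88, and 4 of 5 metastasis samples lay above every carcinoma. The difference was 0.69 ± 0.24 (adjusted p = 0.0430), 1.61-fold and so not called. It was called with a normexp offset of 0 (1.05, adjusted p = 0.0348) and from processed signals (1.64, adjusted p = 0.0335). Without normalization between arrays it was 0.66 (adjusted p = 0.103). The second Esr1 probe was well above background on 4 of 22 arrays and gave -0.02 ± 0.08 for this comparison (adjusted p = 0.891).

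Among disseminated cells and metastases the keratins were among the most variable of all genes. The SD of Krt8 was at the 99.9th percentile of all genes in disseminated cells (2.11) and in metastases (2.67), where the median gene had an SD of 0.32 and 0.21. In adenomas Krt8 was at the 90.2nd and Krt19 at the 37.1st percentile. Krt18 was at the 99.8th and 99.9th percentile in disseminated cells and metastases, and there Krt19 and Gata3 at the 97.1st or above. In these groups the brightest Prlr probe was at the 5.3rd and 2.3rd percentile. The other Prlr probes spread more, with SDs of 1.11 and 0.89 in disseminated cells and 1.34 and 0.84 in metastases. The arrays at the extremes recurred: metastases 4 was the lowest of its group for Krt8, Krt18, Krt19, Cd24a, Elf5 and Gata3, and disseminated cells 6 the highest of its group for Krt8, Krt18, Cd24a, Gata3 and Esr1.

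Other epithelial genes were read from a list of 20 that held none of the 10. In it 10 of 20 were lower in disseminated cells than in adenomas (5.82% of all genes) and 0 higher, with a median difference of -1.63 beside -0.01 over all genes. The largest falls were Esrp2, an epithelial splicing regulator (-3.23 ± 0.73, adjusted p = 0.00514), Ovol1, a zinc finger factor of epithelia (-2.96 ± 0.72, adjusted p = 0.00755), and Marveld2, a protein of tight junctions (-2.88 ± 0.69, adjusted p = 0.00688). Against carcinomas 6 were lower and 1 higher, beside 6.07% and 5.50% of all genes. The lower ones were led by Cldn7, a claudin (-2.57 ± 0.65, adjusted p = 0.00654), Spint2, a protease inhibitor (-2.13 ± 0.48, adjusted p = 0.00333), and Rab25, an epithelial Rab GTPase (-1.91 ± 0.48, adjusted p = 0.00640). In metastases 5 of 20 were lower than in adenomas (8.47% of all genes), among them Esrp2 (-2.87) and Grhl2 (-2.30). Against carcinomas 1 of 20 was lower, again Spint2 (-1.74), a share close to that of all genes (5.31%). The per-array mean of the list lay between 2.89 and 3.76 in adenomas, at 1.86 in carcinoma 6 and from 3.04 to 3.27 in the other carcinomas. It lay between 0.95 and 2.78 in disseminated cells, at 0.54 in metastases 4 and from 2.49 to 3.38 in the other metastases.

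Genes of hormone-sensing luminal cells were read from another list of 20. Over all genes 1.15% were called higher in carcinomas than in adenomas, and the shares called lower in the other comparisons are those given above, with 5.31% for metastases against carcinomas. Of the list, 2 were higher in carcinomas than in adenomas, Areg, the amphiregulin ligand downstream of the estrogen receptor (1.93 ± 0.52, adjusted p = 0.0226), and Agr2 (1.46 ± 0.44, adjusted p = 0.0349). In disseminated cells 3 were lower than in adenomas, Stc2 (-2.27), Tfap2c (-2.11) and Cited1 (-1.18), and 2 lower than in carcinomas, Spdef (-2.61) and Tfap2c (-2.09). In metastases Areg was higher than in adenomas (1.95 ± 0.55, adjusted p = 0.0115), and 3 genes were lower, Stc2 (-1.66) and Wnt4, a paracrine signal of progesterone (-1.30 ± 0.21, adjusted p = 0.000210), among them. Against carcinomas Spdef (-1.90) and Agr2 (-1.45) were lower. The median differences of this list stayed between -0.27 and -0.03 in all 6 progression comparisons, beside -0.07 to 0.06 over all genes.

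Of 18 genes of alveolar progenitors, 5 were lower and 2 higher in disseminated cells than in adenomas, beside 5.82% and 4.65% of all genes. The lower ones included Mfge8, a milk fat globule protein (-2.59 ± 0.91, adjusted p = 0.050), and the higher ones were Cd14 (2.87 ± 0.83, adjusted p = 0.0201) and Id2 (2.16 ± 0.47, adjusted p = 0.00433). Cd14 is also a marker of monocytes and macrophages, whose list mean was 3.33 or more in these samples. Against carcinomas 5 were lower and 1 higher, beside 6.07% and 5.50% of all genes, led by Mfge8 (-3.54), Elf3, an ETS factor related to Elf5 (-2.51 ± 0.57, adjusted p = 0.00338), and Plet1 (-2.34). In metastases 1 was higher than in adenomas, Cd14 (3.13), and 3 were lower, beside 6.09% and 8.47% of all genes. The lower ones included Rspo1 (-2.70) and Ehf, another epithelial ETS factor (-2.42 ± 0.51, adjusted p = 0.00162). Against carcinomas 2 were lower (5.31% of all genes), Ehf (-1.53 ± 0.49, adjusted p = 0.0294) and Folr1 (-1.43). In carcinomas 1 was higher than in adenomas, Lcn2 (1.39), and 2 were lower, Rspo1 (-2.45) and Tfap2a (-1.24), beside 1.15% and 2.14% of all genes. In the prolactin pathway, 3 of 14 genes were higher in disseminated cells than in adenomas and 0 lower, beside 4.65% and 5.82% of all genes. They were Cav1, which endothelial cells also express strongly (2.28), Socs3, a feedback inhibitor (2.10), and Jak2, the kinase bound to the receptor (1.56), and in the same samples 7 of 10 endothelial and 7 of 9 neutrophil markers were higher. Metastases had 2 of 14 higher than adenomas (6.09% of all genes), Socs3 (2.21) and Cav1 (1.89), and 1 lower (8.47% of all genes), Socs2 (-1.44).

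The genes most like each luminal gene over the 22 arrays were sought among 9788 genes named by accession whose sample channel was well above background on every array. They were Pacsin3 (Pearson r = 0.97), Cldn7 (0.97) and Bod1 (0.96) for Krt8 and Pacsin3 (0.97), Ptprk (0.97) and Pkp3 (0.96) for Krt18. For Krt19 they were Efna5, Wipi1 and Ltbp3 (0.89 to 0.90), for Elf5 Kdf1, Tnk1 and Ica1 (0.96), for Gata3 Cep170b, Me1 and Cyb561 (0.94 to 0.96), and for Cd24a Grpel2, Hmgn1 and Cnn3 (0.90 to 0.91). Prlr gave Syt10, Mul1 and Cep95 (0.89 to 0.90), and Esr1 Copb2, Uap1 and Ssr1 (0.84 to 0.87). Foxa1 reached at most 0.74 with Slc16a11, followed by Gpx2 and Endod1. None is given for Pgr, which was not measurable. These are descriptions over arrays that share groups, slides and a reference.

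The chemotherapy comparison asked whether tumor cells that survive treatment keep their luminal genes. No luminal gene was called in residual against untreated tumors (0 of 10, beside 0.0938% of all genes), relapsed against untreated (0 of 10, 0.0104%) or relapsed against residual tumors (0 of 10, 0.212%). At an unadjusted p under 0.05 limma gave 0, 1 and 1 of the 10, both times Esr1, and the test without moderation called 0 in all 3. Few genes of any kind were called in this experiment.

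**Figure D5:**
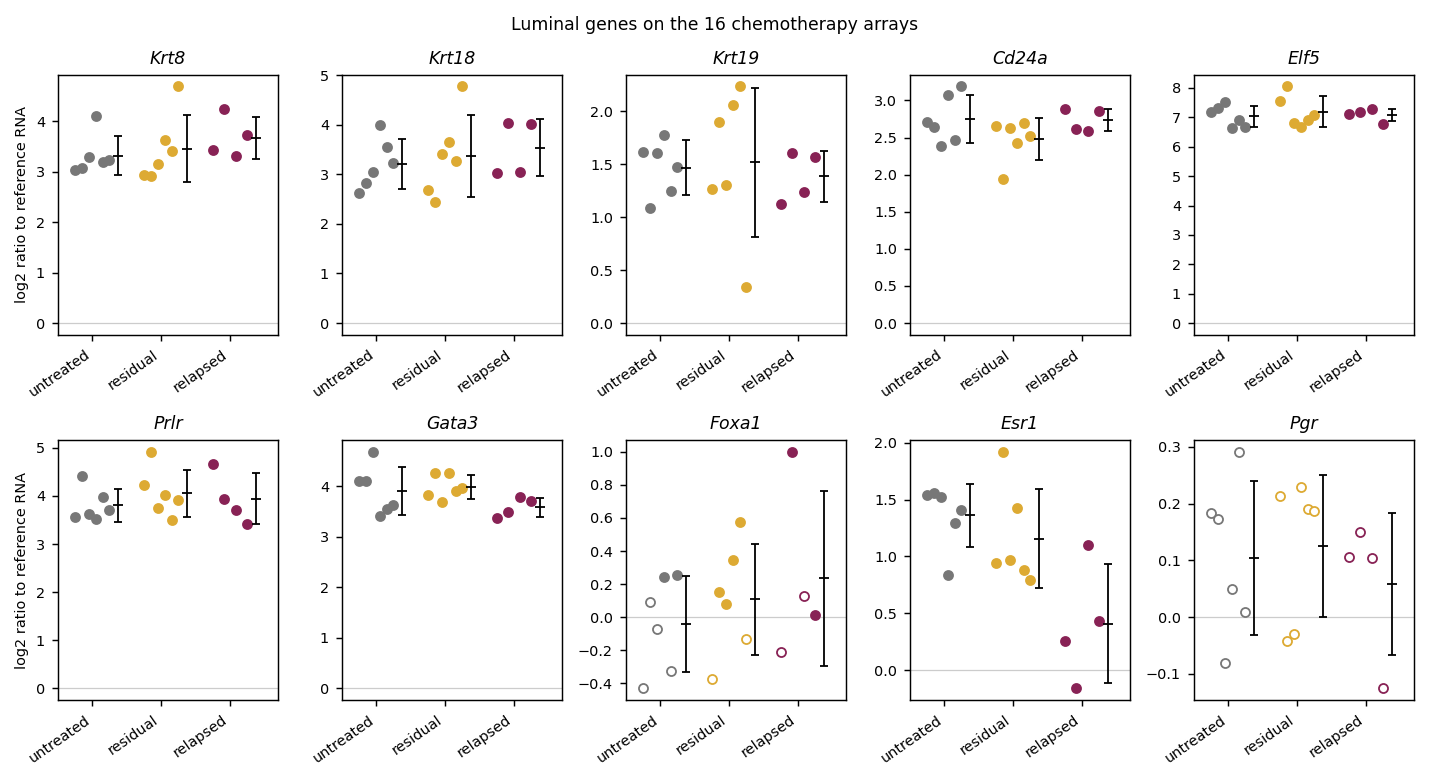
Log2 ratio to the reference RNA (vertical axis) of the 10 luminal genes on the 16 chemotherapy arrays, by group, with 1 point per array, open where not well above background, and mean and SD in black. Krt8, Krt18 and Elf5 overlap in all 3 groups, and 3 of 4 relapsed tumors lie below every untreated and residual tumor for Esr1.

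For the keratins no difference between treated and untreated tumors passed. Krt8 was 3.32 ± 0.39 (SD, n = 6) before treatment, 3.45 ± 0.66 (n = 6) in residual tumors and 3.67 ± 0.41 (n = 4) at relapse, with 95% intervals of the difference from untreated of -0.45 to 0.72 and -0.30 to 1.0. The other Krt8 probe differed from untreated by 0.24 in residual tumors (95% interval -0.12 to 0.61, adjusted p = 0.730). At relapse it differed by 0.50 (0.10 to 0.91, adjusted p = 0.490). Krt18 was 3.21 ± 0.50, 3.37 ± 0.82 and 3.53 ± 0.57, with intervals of -0.57 to 0.90 and -0.50 to 1.15. Krt19 was 1.47 ± 0.26, 1.52 ± 0.70 and 1.39 ± 0.24, and Cd24a 2.74 ± 0.32, 2.48 ± 0.28 and 2.74 ± 0.15. The highest Krt8 and Krt18 values, 4.69 and 4.77, came from residual tumor 6, which also had the lowest Krt19 at 0.34.

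Elf5 and Gata3 lay well above the reference in all 3 groups. Elf5 was 7.04 ± 0.36 without treatment, 7.19 ± 0.52 in residual tumors and 7.09 ± 0.21 at relapse, with 95% intervals of -0.31 to 0.60 and -0.47 to 0.56 against untreated. These intervals leave out a 2-fold change in either direction, as do those of Gata3 (-0.32 to 0.46 and -0.76 to 0.11), which was 3.91 ± 0.48, 3.99 ± 0.23 and 3.59 ± 0.19. Foxa1 was well above background on 8 of 16 arrays and lay between -0.43 and 1.0.

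Among the receptors, Esr1 was measured on every array of this experiment. Untreated tumors 1 to 6 had 1.54, 1.56, 1.53, 0.84, 1.29 and 1.41, residual tumors ranged from 0.79 to 1.92 with a median of 0.96, and relapsed tumors 1 to 4 had 0.25, -0.16, 1.10 and 0.43. In all, 3 of 4 relapsed tumors lay below every untreated and every residual tumor. The difference from untreated was -0.95 ± 0.24 (95% interval -1.47 to -0.44, adjusted p = 0.283) and from residual -0.75 ± 0.24 (adjusted p = 0.394), so neither passed. Groups and slides overlapped little. Relapsed tumors shared slide 5 with 1 untreated tumor and slide 4 with 1 residual tumor, with differences of -0.64 and -0.75. With slide as a fixed block the adjusted p was 0.999 against untreated and 0.780 against residual tumors. The second Esr1 probe was well above background on 1 of 16 arrays. Prlr, read here from its second probe, was 3.8 ± 0.34, 4.05 ± 0.49 and 3.94 ± 0.53, with its reference channel well above background on 9 of 16 arrays.

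In the lists around these genes, 1 gene was called after chemotherapy, Ly6a, a surface marker of a luminal subset, which was higher in residual than in untreated tumors (1.65 ± 0.26, adjusted p = 0.0174). This call was lost with slide as a fixed block and without residual tumor 1 or 2 or untreated tumor 3 or 5, each left out alone. The macrophage list mean ran from -0.59 to 2.27 in untreated, from -0.77 to 1.39 in residual and from -1.21 to 0.67 in relapsed tumors, and the epithelial list mean from 3.39 to 3.76, from 3.48 to 3.94 and from 3.54 to 4.05.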

How the data were processed

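RNA of 22 progression and 16 chemotherapy samples was read on 38 Agilent 2-color arrays. The authors deposited scanner intensities per spot (Agilent Feature Extraction 10.7), not normalized, and a matrix of their own normalized log2 ratios, which correlated with the values used here at 0.966 to 0.998 per array and served as an alternative. The study states a normal-exponential background model, loess and quantile normalization. Offset and software versions are not given in the sources used here.

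Starting from the intensities, background was corrected with normexp (offset 50), ratios were normalized by loess within and quantiles between the arrays of an experiment in limma 3.58.1 (R 4.3.3), outlier-flagged spots were left out and spots of a probe averaged. Probes were named by accession through a RefSeq table for 22951 probes and by the array files for 18223. The sample channel was well above background at 48.4 to 78.9% of spots. The number of arrays limits the precision. The labels do not say whether replicates are separate mice, so p-values measure the spread between these samples.

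Each experiment was fitted as 1 limma model with a mean per group and no covariate, over 28784 genes, with Benjamini-Hochberg adjustment. The procedure was tested on simulated data. Named genes are the 10 luminal genes, up to 3 called genes with the largest change per pathway list and comparison, and the 3 genes most correlated with each luminal gene except Pgr. Members and lists were chosen with earlier results of these data known. Alternatives were other background corrections, normalizations and filters, averaging the probes of a gene, blocks for slide and replicate number, a macrophage covariate, other tests and each replicate left out. One alternative, chosen after seeing the data, left out the 4 arrays with a median correlation under 0.8 with their own group.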

Additional observations from a re-analysis of the deposited data

Results flagged for a closer look

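Single samples far from the others of their group were found in 10 of 70 combinations of gene and group, where normal values would give about 3.5. The genes share arrays, so the combinations are not independent and nothing is read from this number. Metastases 4 was set apart by its low Krt8 (-1.50, next lowest 3.64), Krt18 (-3.59, next 1.18) and Elf5 (2.06, next 5.11), with the macrophage list mean at 5.13, the highest of all arrays. Carcinoma 6 was set apart by its low Elf5 (4.50, next 6.49), with a macrophage mean of 4.93. The part of other cell types in these values was not tested.

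Disseminated cells 6 stood out by a high Esr1 (0.13, next -0.90), a probe that was well above background on 2 of 6 arrays of that group. Disseminated cells 4 stood out by Pgr (1.11, next 0.24), the only array on which that probe was well above background. In the chemotherapy experiment untreated tumor 4 had a high Krt8 (4.10, next 3.28) and a low Esr1 (0.84, next 1.29), residual tumor 2 a low Cd24a (1.94, next 2.43), and relapsed tumor 4 a low Pgr (-0.13, next 0.10), the last below detection on every array of its group.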

How the results depend on the processing

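Of the recomputed differences of single luminal genes, 0 called changes reversed. No luminal gene was called under any alternative between carcinoma and adenoma or in the 3 chemotherapy comparisons. The count of 1 for disseminated cells against adenoma became 0 with processed signals, the t-test, an adjusted p below 0.01, the macrophage covariate and the replicate block, 2 with the deposited log2 ratios, without dim probes and with the mean of a gene's probes, 3 with slide as a fixed block, and 0 to 4 with 1 array left out (0 without adenoma 3 or disseminated cells 5, 2 without metastases 4, 3 without disseminated cells 4, 4 without disseminated cells 6). For metastases against adenoma 1 became 0 with processed signals, Aquantile or no normalization between arrays (which leave the ratios the same), an adjusted p below 0.01 and the covariate, and was 1 to 2 with 1 array left out (2 without metastases 4). For disseminated cells against carcinoma 2 became 1 under Aquantile or without between-array normalization and 0 with an adjusted p below 0.01 and the covariate, with 1 to 4 when 1 array was left out (1 without carcinoma 2, 3 or 5 or disseminated cells 3 or 5, 4 without disseminated cells 4 or metastases 4). In that comparison Elf5 was called in addition with processed signals, median centring and the deposited ratios, and Prlr with the mean of a gene's probes. For metastases against carcinoma 0 became 1 with a normexp offset of 0 and the replicate block and 2 with processed signals, with 0 to 1 when 1 array was left out (1 without metastases 4, carcinoma 6 or disseminated cells 6). For metastases against disseminated cells 1 became 2 with an offset of 0, median centring, the deposited ratios and without dim probes, and 0 with Aquantile or no normalization between arrays, only the groups compared, the t-test, an adjusted p below 0.01 and the covariate, with 0 to 5 when 1 array was left out (5 without metastases 4, 4 without disseminated cells 6, 1 without adenoma 3, carcinoma 6 or disseminated cells 4, and 0 in the 17 other refits). Without the 4 arrays least like their group, a choice made after seeing the data that narrows the spread by construction, the counts were 5, 2, 5, 2 and 5 in these comparisons, in the order given. Where no value shows it, the cause was not tested.

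Equal replicate numbers did not pair the samples: same-numbered samples had a median correlation of deviations of -0.02 in progression and 0.04 in chemotherapy, with 8 of 31 and 6 of 14 pairs above 0.1, and 1 of 22 and 6 of 16 samples were closest to their own number. With the replicate block the counts of luminal genes called were 0 for disseminated cells against adenoma (Elf5 -2.24, adjusted p = 0.0611) and 1 for metastases against carcinoma (Cd24a 1.38, adjusted p = 0.0304). For metastases against disseminated cells the count stayed at 1 but the Krt19 call was lost (2.42, adjusted p = 0.0695) and Cd24a was gained (1.54, adjusted p = 0.0277). Slide as a fixed block could be fitted in progression only for disseminated cells against adenoma and metastases against carcinoma. A dim sample channel limits Esr1 in progression and Foxa1 in both experiments, and both channels were dim for Pgr. In chemotherapy a dim reference channel on some arrays limits Prlr.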
